A study of Macaca mulatta with 8 samples.

Results

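Plasma cells of the macaque retina were defined as barcodes with at least 1500 unique molecular identifiers (UMIs) and 300 detected genes that carried at least 50 UMIs of JCHAIN, at least 3 UMIs of MZB1 and none of MS4A1. This rule was met by 397 of 91803 barcodes. JCHAIN encodes the joining chain of polymeric antibodies, MZB1 is a chaperone of the endoplasmic reticulum (ER) that assists antibody assembly, and MS4A1 (CD20) is a surface protein of B cells that is lost on the way to the plasma cell.

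The libraries came from the retina of 2 male rhesus macaques, NHP1 aged 5 years and NHP2 aged 6 years, and were made with a droplet kit that reads the 5′ end of each transcript. NHP1 received AAV2-CAG-hRPE65, which drives human RPE65 from a ubiquitous promoter, under the retina of both eyes, and gave 1 library per eye from an area labelled uninjected. NHP2 received AAV8-GRK1-hRPGR and AAV8-GRK1-mScarlet in separate blebs of each eye, and gave per eye 1 library from the hRPGR bleb, 1 from the mScarlet bleb and 1 from an area labelled uninjected. The GRK1 promoter is active in photoreceptors, hRPGR is a therapeutic transgene and mScarlet a fluorescent reporter given at another dose, so vector, transgene and dose cannot be told apart. All eyes, controls included, received triamcinolone, a corticosteroid, and the left eye of each animal had adalimumab as well, an antibody against TNF. Every NHP2 library came from 1 animal, so p-values describe the spread between areas of that animal and not between animals.

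Plasma cells are the antibody-secreting end stage of B cells. PRDM1, IRF4 and XBP1 shut down the B cell program and expand the ER, where antibody chains enter, fold, are glycosylated and leave for the Golgi. A healthy retina holds few of them behind the blood-retina barrier.

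The libraries held 90634306 to 146519011 UMIs each, and the median barcode other than a plasma cell had 4606.5 to 6035.5 UMIs. In the library labelled NHP1 uninjected left, the vector transcript huRPE65 stood at 353 CPM, the UMI count scaled to library depth, in the other barcodes, against 0.205 CPM in the right eye. In the library labelled NHP2 uninjected right, codon-optimized RPGR (coRPGR) stood at 139 CPM, against 0 in the left eye. Both labels were kept, and the comparison that rests on the NHP2 library is given with and without it. The mScarlet right library also held 18.7 CPM of coRPGR. No barcode of a plasma cell was shared between any of the 28 pairs of libraries.

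Plasma cells were found almost entirely in 3 of the 4 bleb libraries. The right mScarlet bleb held 78 of 9564 barcodes (0.816%, exact 95% interval 0.645 to 1.02), the left mScarlet bleb 235 of 11270 (2.09%, 1.83 to 2.37) and the right hRPGR bleb 77 of 12629 (0.610%, 0.481 to 0.761). Together these 3 libraries held 390 plasma cells, or 98.2% of the total. The left hRPGR bleb held 2 of 10120 (0.0198%, 0.00239 to 0.0714) and so lay with the uninjected areas. The NHP2 uninjected areas held 1 of 10227 barcodes on the right (0.00978%) and 3 of 12095 on the left (0.0248%). In NHP1, 0 of 10818 barcodes of the right eye qualified, which allows a share of up to 0.0277% by a limit of 3 counts (0.0341% by the exact interval), and 1 of 15080 of the left eye (0.00663%). Such intervals and limits cover counting error only.

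**Figure D1:**
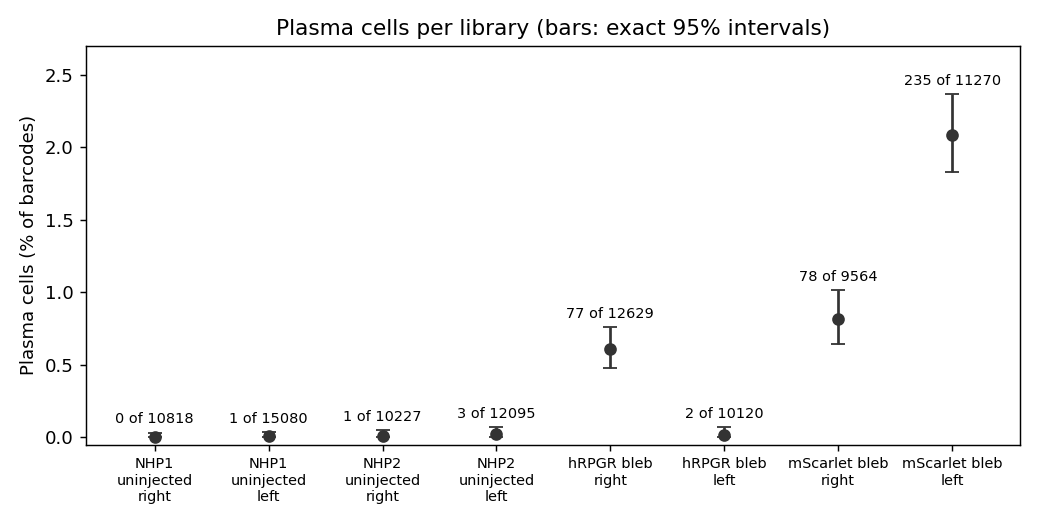
Share of barcodes that met the plasma cell rule (percent, vertical axis) in each of the 8 libraries (horizontal axis), with exact 95% binomial intervals and the counts above each point. The left mScarlet bleb stood highest at 2.09%, the right mScarlet and right hRPGR blebs lay at 0.816% and 0.610%, and the other 5 libraries lay near 0.

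The share of plasma cells averaged 0.883% ± 0.870 (SD, n = 4) in the blebs of NHP2 and 0.0173% ± 0.0106 (n = 2) in its uninjected areas. The groups overlapped, since the left hRPGR bleb lay between the uninjected areas, and the difference of 0.865 percentage points was not larger than the spread between libraries (exact two-sided permutation test, p = 0.267, where the smallest p this design allows is 0.133). With libraries permuted within the same eye, p was 0.444 (smallest 0.222). At the main JCHAIN threshold the overlap rested on 1 plasma cell of the left uninjected area, with 1603 UMIs and 3 of MZB1. With JCHAIN of at least 100 UMIs this cell was left out, but p stayed 0.267 (exact two-sided permutation test). The left hRPGR bleb then held 1 plasma cell and the left uninjected area 2. A higher threshold of MZB1 or of UMIs per barcode also left out the cell with 1603 UMIs, and p was then 0.133 (exact two-sided permutation test). Without the uninjected right library, which held coRPGR, the difference was 0.858 percentage points, and without the left mScarlet bleb it was 0.464. The mScarlet blebs averaged 1.45% ± 0.898 (n = 2) and the hRPGR blebs 0.315% ± 0.417 (n = 2), and their difference of 1.14 points could not reach significance (exact two-sided permutation test, p = 0.333, also the smallest possible). It was 0.501 points without the left mScarlet bleb and 1.77 without the right one. The left eye, which had adalimumab, averaged 0.710% ± 1.19 (n = 3) and the right eye 0.478% ± 0.419 (n = 3). The eyes overlapped and differed by 0.232 points (exact two-sided permutation test, p = 0.8, smallest 0.1). This direction turned to -0.456 points without the left mScarlet bleb and to -0.00272 without the right uninjected area, and the difference was 0.574, 0.577 and 0.400 points without the left uninjected area, the left hRPGR bleb and the right mScarlet bleb. The vectors pointed in opposite ways between the eyes, with more plasma cells on the left in the mScarlet blebs and more on the right in the hRPGR blebs.

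The selected barcodes were large, with a low mitochondrial share. A plasma cell had a median of 27402 UMIs (range 1603 to 65285) and 2783 genes, with a median mitochondrial share of 0.253% and a highest value of 1.55%. JCHAIN ranged from 54 to 2936 UMIs per cell (median 654) and MZB1 from 3 to 171 (median 34). Only 15 cells had fewer than 100 JCHAIN UMIs. Just outside the rule, 14 barcodes had 20 to 49 JCHAIN UMIs with enough MZB1, of which 8 were in the left mScarlet bleb. No barcode was left out for MS4A1 alone. In each library the barcodes with the highest doublet scores were marked, and none of the 397 was among them. The scores do not show that no doublet was left. In the right mScarlet bleb 2 plasma cells held 322 of 326 UMIs of the cone gene PDE6H.

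A further set of barcodes in the right hRPGR bleb failed the rule on MZB1 alone. There, 20 barcodes had 52 to 81 JCHAIN UMIs but fewer than 3 of MZB1, and they were small, with 2264 to 3761 UMIs. All 20 drew 16 to 21.5% of their UMIs from a single feature without a symbol (ENSMMUG00000058581). Their XBP1 level was 145 CPM against 760 CPM in the plasma cells of that library. Similar barcodes in the other libraries numbered 0, 1 or 3, and none took over 5% of its UMIs from that feature. In the same library, 11 plasma cells with 23548 to 37970 UMIs drew 29.8 to 64.5% from it. The 2 smallest plasma cells of that bleb, with 2444 and 2934 UMIs, drew 22.3% and 19.9% from it and so resembled the excluded barcodes.

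The genes of plasma cell identity were present at high levels in the selected cells. Levels below are CPM summed over the plasma cells of the right hRPGR, right mScarlet and left mScarlet blebs, in that order, beside the mean over these libraries of 76 barcodes with at least 3 UMIs of MS4A1 (B cell barcodes) and of 32106 barcodes outside the plasma, B and T cell sets (other barcodes). The cells were chosen on JCHAIN and MZB1, so these contrasts are descriptions without a test. Of 13796 named genes, 7.21% were over 2-fold higher in plasma cells than in other barcodes and 75.9% over 2-fold lower, with a median log2 ratio of -2.10. Features without a symbol took 61.6 to 64.9% of plasma cell UMIs, which lowers the CPM of every other gene. On a scale of named genes other than immunoglobulin genes, JCHAIN and MZB1, 17.3% were higher and 40.5% lower, with a median of -0.62.

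Of 18 plasma identity genes, 16 were over 2-fold higher in plasma cells than in other barcodes on both scales, with median log2 ratios of 5.62 and 7.10. PRDM1, the repressor that ends the B cell program, stood at 271, 319 and 237 CPM, against 18.9 CPM in B cell barcodes and 18.9 CPM in other barcodes. XBP1, the transcription factor of the secretory ER, stood at 760, 1119 and 1008 CPM, against 105 and 41.3 CPM. IRF4, which is needed for plasma cell fate, stood at 186, 195 and 139 CPM, against 186 CPM in B cell barcodes and 0.994 CPM in other barcodes. In T cell barcodes (at least 3 UMIs of CD3 genes) PRDM1, XBP1 and IRF4 stood at 147, 75.6 and 79.3 CPM. PRDM1 and XBP1 were higher than the mean of B cell barcodes in all 3 libraries and on both scales. For IRF4 the order depended on the scale, since its log2 ratio to B cell barcodes was 1.38 on the named-gene scale.

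Surface receptors differed in how far they stood from B cell barcodes. TNFRSF17 (BCMA), the receptor for the plasma cell survival factors APRIL and BAFF, stood at 313, 206 and 221 CPM, against 25.8 CPM in B cell barcodes and 0.454 CPM in others. SDC1 (CD138), the classical plasma cell surface proteoglycan, stood at 60.1, 51.6 and 60.6 CPM and had no UMI in B cell barcodes. SLAMF7, a signaling receptor and antibody target in myeloma, stood at 133, 146 and 150 CPM, against 13.7 CPM. Each of these was higher in the plasma cells of all 3 libraries than the mean of B cell barcodes. By contrast, CD38, an ectoenzyme, stood at 25.1, 58.6 and 51.5 CPM against 214 CPM in B cell barcodes, the Fc receptor-like FCRL5 at 22.7, 26.3 and 29.1 CPM against 294 CPM, and TNFRSF13B (TACI) at 108, 110 and 105 CPM against 374 CPM. On the named-gene scale FCRL5 remained lower than in B cell barcodes (log2 ratio -2.02), whereas CD38 and TNFRSF13B were within 2-fold (-0.79 and -0.31). Of the identity genes with UMIs in both sets, 8 were over 2-fold higher than in B cell barcodes on that scale. There were 2, FCRL5 and POU2F2, over 2-fold lower, against 19.6% higher and 17.7% lower among 11429 named genes. SDC1 and AQP3 had no UMI in B cell barcodes and are not in this count.

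Among the intracellular members, DERL3, a channel component that clears misfolded proteins from the ER, stood at 1103, 891 and 971 CPM, against 147 CPM in B cell barcodes and 5.83 CPM in others. POU2AF1, the octamer co-activator of immunoglobulin genes, stood at 126, 190 and 161 CPM against 82.2 CPM, and its partner POU2F2 at 17.0, 25.8 and 21.6 CPM against 171 CPM. CD79A, a signaling chain of the B cell receptor, stood at 151, 327 and 289 CPM against 734 CPM, a difference that was not seen on the named-gene scale (log2 ratio -0.07). The elongation factor ELL2 (63.9, 133 and 148 CPM) and the adaptor LAX1 (27.0, 47.4 and 38.3 CPM) exceeded the other barcodes at 29.2 and 0.198 CPM. The water channel AQP3 stood at 34.1, 57.2 and 47.8 CPM and had no UMI in B cell barcodes. The 2 exceptions were ZBTB20, at 82.8, 117 and 75.8 CPM against 650 CPM in other barcodes, and CAV1, a caveolar protein, at 1.89, 0.469 and 1.91 CPM against 25.6 CPM. Levels of CD27 and BHLHA15 were not analysed here.

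Plasma cells held more UMIs than other cells, which raises the share of cells with a UMI. Before thinning, 99.5% of plasma cells had a UMI of XBP1 and 93.6% a UMI of TNFRSF17. With each cell thinned to 1500 UMIs, 69.5% of the 390 plasma cells had a UMI of XBP1, against 5.22% of 900 sampled other barcodes. TNFRSF17 was then seen in 30.5% and in no sampled barcode, and PRDM1 in 28.5% and 2.44%.

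**Figure D2:**
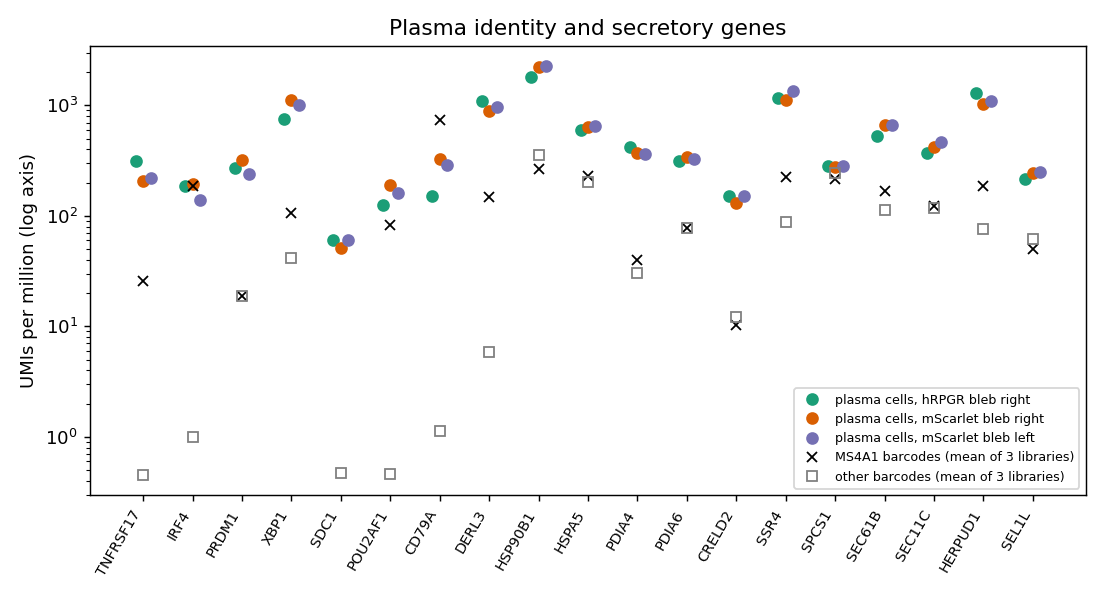
Level of 19 identity and secretory genes (CPM, log axis) in the plasma cells of 3 libraries (filled circles), with the mean of the same libraries for B cell barcodes with MS4A1 (crosses) and other barcodes (open squares), values of 0 not drawn. XBP1, DERL3, HSP90B1 and SSR4 were higher in plasma cells of each library than the means of both other sets, whereas CD79A on this scale was highest in B cell barcodes.

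The B cell program was lower in the plasma cells than in B cell barcodes. Of 22 genes, 20 were over 2-fold lower than in B cell barcodes and 0 over 2-fold higher on the named-gene scale (median log2 ratio -3.25), against 17.7% lower and 19.6% higher among all named genes. CD74, the invariant chain of antigen presentation, stood at 1689, 2809 and 2554 CPM against 20888 CPM. The scaffold BANK1 stood at 25.6, 59.1 and 42.4 CPM against 840 CPM, and CD79B, the second signaling chain of the receptor, at 28.9, 34.7 and 38.1 CPM against 371 CPM. CD40, the receptor for T cell help, was 13.7, 11.3 and 11.9 CPM against 254 CPM, and the kinase BLK 15.1, 10.8 and 10.6 CPM against 190 CPM. PAX5, the factor that maintains B cell identity, had 3 UMIs in all 390 cells, and TCL1A had none. Relative to other barcodes, however, 14 of the 22 genes were over 2-fold higher on the named-gene scale and 2 over 2-fold lower. Among all named genes 17.3% were higher and 40.5% lower.

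The chaperones and disulfide enzymes that fold antibody chains were higher in plasma cells than in other barcodes almost throughout. All but 1 of 22 ER folding genes were over 2-fold higher in plasma cells than in other barcodes on the named-gene scale. On the scale of all UMIs 17 were higher and none was over 2-fold lower. For all named genes, 17.3% were higher on the first scale, and 7.21% higher and 75.9% lower on the second. HSP90B1 (GRP94), the ER chaperone of the Hsp90 family, stood at 1806, 2233 and 2256 CPM against 354 CPM in other barcodes. HSPA5 (BiP), which holds unpaired heavy chains, stood at 604, 641 and 658 CPM against 204 CPM. CALR, a lectin chaperone, stood at 571, 488 and 565 CPM against 227 CPM. The proline isomerase PPIB (499, 497 and 534 CPM against 107 CPM) and the disulfide isomerase PDIA4 (420, 372 and 364 CPM against 30.7 CPM) were also several times higher. For HSPA5 the mean of the libraries was 634 CPM ± 27.4 (SD, n = 3), and the plasma cell values of all 5 genes in each library lay above the mean of other barcodes.

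Promoters of this group were searched for the ER stress response element, CCAAT then any 9 bases then CCACG, on both strands of the 250 bases before each start site. It is the site recognized by NF-Y with ATF6 or XBP1 in ER chaperone genes. The exact letters stood in 5 of 25 ER folding promoters (20%), those of HSPA5, HSP90B1, PDIA6, ERO1B and CRELD2, against 13 of 20784 promoters (0.0625%). None of the other lists held it. The promoters of 4 of these genes are shown because they carry the element and belong to chaperones that stood high in plasma cells. Sequences are from RefSeq, build Mmul_10, 200 bases up to the start site, 5′ to 3′ on the strand of the gene, with the element or its reverse complement in capitals. HSPA5 lies at chr15:15428142-15428341 on the plus strand, HSP90B1 at chr11:103631854-103632053 on the plus strand, PDIA6 at chr13:97948448-97948647 on the plus strand and CRELD2 at chr10:1552760-1552959 on the minus strand.
HSPA5: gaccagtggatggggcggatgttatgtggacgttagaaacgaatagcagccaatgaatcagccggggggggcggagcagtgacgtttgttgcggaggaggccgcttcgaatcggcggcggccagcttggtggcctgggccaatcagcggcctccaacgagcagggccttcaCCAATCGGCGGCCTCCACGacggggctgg
HSP90B1: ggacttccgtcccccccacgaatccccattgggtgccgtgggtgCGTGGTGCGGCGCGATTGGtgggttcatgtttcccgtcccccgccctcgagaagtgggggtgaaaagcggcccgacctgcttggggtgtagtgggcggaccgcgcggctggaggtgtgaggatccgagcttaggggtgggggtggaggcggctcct
PDIA6: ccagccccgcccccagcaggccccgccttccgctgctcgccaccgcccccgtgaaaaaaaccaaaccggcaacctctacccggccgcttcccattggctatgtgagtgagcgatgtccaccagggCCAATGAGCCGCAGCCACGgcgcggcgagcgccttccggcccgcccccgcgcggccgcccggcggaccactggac
CRELD2: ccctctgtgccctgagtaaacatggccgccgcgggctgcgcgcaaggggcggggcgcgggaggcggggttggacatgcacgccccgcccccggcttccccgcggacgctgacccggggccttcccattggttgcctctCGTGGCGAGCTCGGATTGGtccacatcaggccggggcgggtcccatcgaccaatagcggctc
The element begins 29 bases before the start site in HSPA5, 75 in PDIA6, 62 in CRELD2 and 156 in HSP90B1. PDIA6, a disulfide isomerase, stood at 314, 341 and 325 CPM in plasma cells against 78.1 CPM in other barcodes, and CRELD2, an ER stress-inducible factor, at 150, 130 and 151 CPM against 12.1 CPM. A match describes letters in this window and not occupancy by a factor. The core UPRE element (TGACGTGG or TGACGTGA, both strands), a site of XBP1, stood in 4 of 25 ER-to-Golgi promoters (16%) and 2 of 25 ER folding promoters (8%), against 0.871% of all promoters, and in 1 promoter each of the translocation, unfolded protein response, cell cycle and interferon lists (3.23 to 5%). The octamer ATGCAAAT of POU2F factors stood in 2 of 21 B cell program promoters (9.52%) and 1 of 18 plasma identity promoters (5.56%), against 1.53% of all, and in 1 promoter each of the cell cycle, translocation and interferon lists (3.23 to 5%).

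Genes that bring chains into the ER were also high. Of 22 translocation and signal peptide genes, 17 were over 2-fold higher than in other barcodes on the named-gene scale and 0 lower. On the scale of all UMIs 10 were higher and 2 lower. Among all named genes, 17.3% were higher and 40.5% lower on the first scale, and 7.21% and 75.9% on the second. SSR4, a subunit of the translocon-associated complex, stood at 1165, 1128 and 1340 CPM against 88.5 CPM, and its partner SSR3 at 406, 402 and 397 CPM against 81.2 CPM. SEC61B, of the translocation channel, stood at 534, 662 and 667 CPM against 112 CPM. The signal peptidase subunits SEC11C (373, 419 and 467 CPM) and SPCS3 (310, 356 and 396 CPM) stood above other barcodes at 117 and 74.6 CPM. SRP14, of the cytosolic recognition particle, stood at 106, 125 and 123 CPM against 315 CPM, lower on the scale of all UMIs only (log2 ratio -1.42, against 0.06 on the named-gene scale).

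Of 21 genes of the unfolded protein response and ER-associated degradation, 19 were over 2-fold higher on the named-gene scale, against 17.3% of named genes. HERPUD1, a degradation scaffold, stood at 1307, 1020 and 1092 CPM against 76.6 CPM, EIF2AK3 (PERK), a stress sensor, at 227, 370 and 352 CPM against 17.5 CPM, and SELENOK at 316, 310 and 292 CPM against 203 CPM. DERL3 and XBP1, given above, belong here as well. The exceptions were the sensor ATF6, at 27.9, 47.4 and 42.5 CPM against 126 CPM, and the stress effector DDIT3 (CHOP), at 19.9, 26.7 and 17.2 CPM against 103 CPM. Both were over 2-fold lower on the scale of all UMIs and within 2-fold on the named-gene scale (log2 ratios -0.21 and -0.80).

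Of 16 N-glycosylation genes, 15 were over 2-fold higher on the named-gene scale and 1 lower, against 17.3% and 40.5% of all named genes. MAN1A1, a mannosidase, stood at 236, 375 and 335 CPM against 55.6 CPM, and ST6GAL1, which adds sialic acid, at 123, 322 and 192 CPM against 8.92 CPM. The oligosaccharyltransferase subunits TMEM258, DDOST and RPN2 lay at 213 to 271 CPM against 85.0 to 117 CPM. ER-to-Golgi transport was less distinct than the other ER lists, with 16 of 25 genes higher on that scale and 0 lower. On the scale of all UMIs 8 were higher and 3 lower (median log2 ratio 0.07). Among all named genes 7.21% were higher and 75.9% lower on the latter scale (median -2.10). Its cargo receptor LMAN1 stood at 231, 305 and 310 CPM against 110 CPM, while ARF4, TMED9, KDELR1 and LMAN2 lay between 158 and 224 CPM against 60.8 to 89.6 CPM. Across cells within a library, the share of named UMIs from the translocation list and the share of UMIs from the plasma-restricted features described below had Spearman's rho of 0.548 (77 cells), 0.445 (78 cells) and 0.476 (235 cells). For the ER folding list rho was 0.261, 0.502 and 0.232, both a description over cells that share a library.

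Genes of survival and homing were mostly higher in plasma cells than in other barcodes, but fewer stood out from B cell barcodes. Of 25 genes, 20 were over 2-fold higher than in other barcodes on the named-gene scale and 2 lower. Over all named genes these shares were 17.3% and 40.5%. Relative to B cell barcodes 6 were over 2-fold higher and 9 lower, against 19.6% higher and 17.7% lower among all named genes. Genes with no UMI in B cell barcodes, such as CCR10, are not in the last counts. Besides TNFRSF17, the anti-apoptotic MCL1 stood at 188, 176 and 226 CPM against 104 CPM in other barcodes, and BCL2 at 113, 129 and 118 CPM against 16.7 CPM. On the same scale of all UMIs MCL1 was 476 and 264 CPM in B and T cell barcodes, and BCL2 was 285 and 162 CPM. The integrin ITGA4, which binds VCAM1, stood at 102, 184 and 238 CPM against 14.5 CPM in other barcodes and 144 and 378 CPM in B and T cell barcodes, and CD69, which holds lymphocytes in tissue, at 90.4, 122 and 144 CPM against 10.1 CPM in other barcodes and 1275 CPM in B cell barcodes. CXCR3, the receptor for interferon-induced chemokines, stood at 27.9, 38.0 and 36.8 CPM against 0.326 CPM in other barcodes and 157 and 167 CPM in B and T cell barcodes. CCR10, a chemokine receptor of IgA and mucosal plasma cells, stood at 83.8, 25.3 and 38.8 CPM, against 0.629 CPM in other barcodes and no UMI in B cell barcodes. CXCR4, the bone marrow homing receptor, was low at 8.52, 18.8 and 21.8 CPM, against 293 CPM in B cell barcodes. S1PR1, which guides exit from tissue, had 1 UMI. CXCR3, CCR10, CXCR4 and S1PR1 were named after their values were seen.

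Interferon response genes depended on the scale. Of 30 genes, 13 were over 2-fold higher and 9 lower than in other barcodes on the named-gene scale (median log2 ratio 0.23), against 17.3% higher and 40.5% lower among all named genes (median -0.62). On the scale of all UMIs, 2 were over 2-fold higher and 16 lower (median -1.24), against 7.21% higher and 75.9% lower. Relative to B cell barcodes, 15 were over 2-fold lower and 3 higher, against 17.7% lower and 19.6% higher among all. B2M, the light chain of MHC class I, stood at 2410, 2907 and 3110 CPM against 1163 CPM in other barcodes and 5824 CPM in B cell barcodes. IFI6 stood at 1543, 1096 and 776 CPM against 1378 CPM and ISG15 at 228, 170 and 130 CPM against 148 CPM, within 2-fold of the mean of other barcodes in each library, while their log2 ratios on the named-gene scale were 1.23 and 1.76. The immunoproteasome subunit PSMB8 stood at 128, 224 and 219 CPM against 184 CPM, and the tetherin gene BST2 at 180, 163 and 149 CPM against 82.9 CPM.

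Secreted regulators were scarce. CD274 (PD-L1), a ligand that restrains T cells, was the clearest at 26.0, 58.2 and 39.4 CPM against 8.18 CPM in other barcodes. TGFB1 stood at 8.05, 8.45 and 13.4 CPM against 10.7 CPM and VEGFA at 8.05, 5.63 and 4.71 CPM against 22.7 CPM. The chemokines CCL3 (30.8, 0 and 2.06 CPM) and CCL5 (17.0, 0.469 and 4.71 CPM) lay below the mean of other barcodes, at 47.0 and 23.7 CPM, but were within 2-fold on the named-gene scale (log2 ratios -0.49 and -0.09). IL6, CSF2 and AREG had no UMI among 390 cells, and IL10 had 2 UMIs, against 134 CPM in 891 T cell barcodes with at least 3 UMIs of CD3 genes. Of the factors by which other cells sustain plasma cells, CXCL12, IL6 and CXCL9 had no UMI in plasma cells, and CD86, CD80, CXCL10, TNFSF13B and CXCL11 each lay at or below 7.10 CPM.

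Features restricted to plasma cells, most of them without a gene symbol, made up a large part of the UMIs of most cells. A feature with at least 100 UMIs in plasma cells was called plasma-restricted when its level was at least 100-fold above the comparison barcodes. These were the remaining barcodes of the 3 libraries, with T cell barcodes included and B cell barcodes left out. The term therefore does not set plasma cells against B cells. Of 82 such features with an immunoglobulin symbol or none, 71 had no symbol and took 53.1% of plasma cell UMIs, and 11 had an immunoglobulin symbol and took 2.05%. The same features took 0.0722% of UMIs in the comparison barcodes. Per cell they took a median of 56.2% (range 2.15 to 78.1), and a single leading feature took a median of 36.1% (range 1.51 to 64.5). The leading feature was 1 of 38 different ones, so cells differed in which transcript was most abundant. The medians of the total by library were 55.8, 53.4 and 57.5%, although single cells ranged widely.

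The features with the largest ratio of plasma cells to other barcodes mostly lacked a symbol too. Among features with at least 100 CPM in the plasma cells of each of the 3 libraries, 14 of the leading 15 had no symbol. The other was IGHM, the mu heavy chain, at 17171, 3227 and 4077 CPM against 6.25 CPM in other barcodes and 332 CPM in B cell barcodes. Of the 14, the highest in B cell barcodes (ENSMMUG00000059850) stood at 464 CPM there. Among named genes above the same level, other than immunoglobulin genes, JCHAIN and MZB1, the largest ratios belonged to TNFRSF17 (544-fold), POU2AF1 (345-fold), CD79A (225-fold) and TENT5C (203-fold), a poly(A) polymerase that stabilizes antibody transcripts. These ratios leave out B and T cell barcodes. TENT5C averaged 486 CPM in plasma cells against 301 CPM in T cell barcodes, and CD79A 256 CPM against 734 CPM in B cell barcodes. In T cell barcodes TNFRSF17 and POU2AF1 stood at 0.198 and 3.05 CPM. The named immunoglobulin UMIs came mainly from IGKC, the kappa constant region (40.6%), IGHM (26.0%), and the lambda variable segments IGLV3-10 (16.8%) and IGLV11-55 (10.1%). These segments rest on few cells, since 2 cells of the left mScarlet bleb held 27567 of 27572 UMIs of IGLV11-55, and 22622 of 30740 UMIs of IGLV3-10 there lay in 2 cells and 15030 of 15091 in 1 cell of the right hRPGR bleb. IGHE, the epsilon heavy chain, had 1 UMI. Immunoglobulin genes are near-identical copies, so how reads were divided among them is uncertain.

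Plasma cells fell into classes by IGHM and by 3 features without a symbol, each of which filled a separate set of cells. They were ENSMMUG00000040771 (feature X), ENSMMUG00000002764 (feature Y) and ENSMMUG00000015202 (feature Z), and no source used here gives what they encode. A cell was assigned to a class when that feature held at least 0.5% of its UMIs. Of 397 cells, 265 fell in class X, 61 in Y, 48 in IGHM and 18 in Z, while 3 reached none and 2 reached more than 1. The lowest share within a class was 0.954% for IGHM, 0.691% for X, 1.36% for Y and 1.46% for Z. For IGHM the threshold was not clear-cut, since 105 cells outside the class held 0.1 to 0.5%, and the 2 small plasma cells that resembled the excluded barcodes lay on either side of it, at 0.491% and 0.954%. The classes were chosen after their values were seen and are given without a test.

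The right hRPGR bleb was mixed, whereas both mScarlet blebs were led by class X. In the right hRPGR bleb, IGHM took 28 of 77 cells (36.4%, Wilson 95% interval 26.5 to 47.5), X took 26 (33.8%, 24.2 to 44.9) and Y took 21 (27.3%, 18.6 to 38.1). In the right mScarlet bleb, X took 65 of 78 cells (83.3%, 73.5 to 90.0), Y took 5 (6.41%, 2.77 to 14.1) and IGHM took 4 (5.13%, 2.01 to 12.5). In the left mScarlet bleb, X took 170 of 235 (72.3%, 66.3 to 77.7), Y took 34 (14.5%, 10.5 to 19.5) and IGHM took 16 (6.81%, 4.23 to 10.8). Class Z was seen in 0, 2 and 14 cells. The kappa chain varied too, since cells with at least 0.3% of IGKC made up 24.7% (16.4 to 35.4), 55.1% (44.1 to 65.7) and 36.2% (30.3 to 42.5) of the 3 libraries.

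**Figure D3:**
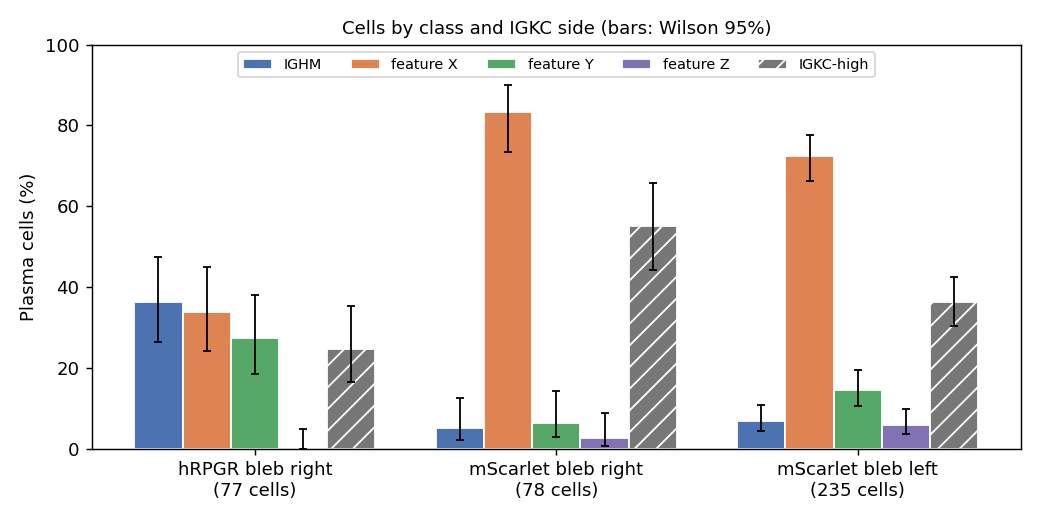
Share of plasma cells (percent, vertical axis) in each class by IGHM or feature X, Y or Z, and with at least 0.3% of UMIs from IGKC, in 3 libraries, with Wilson 95% intervals. Class X took 33.8% of cells in the right hRPGR bleb, against 83.3% and 72.3% in the mScarlet blebs, and IGHM took 36.4% against 5.13% and 6.81%. The intervals cover counting error within a library and do not compare blebs.

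Many cells shared the same abundant plasma-restricted features. The 2 leading plasma-restricted features of a cell, among those that reached 1% of UMIs in under 20% of cells, gave a pair for 360 cells and 104 distinct pairs. Of these, 52 pairs occurred in 1 cell, while 21 occurred in at least 5 cells and covered 223 cells. The largest pair had 31 cells, 29 of them in the left mScarlet bleb, the next had 30 cells, 23 of them in the right mScarlet bleb, and the next 18 cells, all in the left mScarlet bleb. In each of the 21 pairs with at least 5 cells, every cell lay on the same side of the IGKC threshold. The class was less uniform, with 6 of 14, 3 of 8 and 3 of 6 cells in the main class of 3 of these pairs, and some pairs contain feature Y itself. Pairs were not confined to an area, since 29 pairs with 233 cells occurred in more than 1 library. Features were aligned to gene models and not assembled, so a shared pair shows shared features and not a shared clone.

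Other transcripts differed between the classes. In the 3 libraries CCR10 stood at 125, 40.0 and 125 CPM in IGHM cells and 108, 21.7 and 103 CPM in Y, against 25.4, 24.3 and 20.0 CPM in X. The 2 middle values rest on 4 and 5 cells of the right mScarlet bleb. TNFRSF17 was lowest in X in each library, at 376, 330 and 382 CPM in IGHM cells, 382, 361 and 322 CPM in Y, and 207, 190 and 194 CPM in X. The tissue retention gene CD69 was highest in Y, at 179, 715 and 342 CPM, against 30.8, 69.9 and 115 CPM in X. ITPR2, a calcium channel of the ER, was highest in X, at 194, 571 and 481 CPM, against 76.9, 120 and 99.5 CPM in IGHM cells. XBP1 did not separate them as far, at 901, 1180 and 1092 CPM in X and 733, 879 and 703 CPM in IGHM cells. JCHAIN, which the rule for plasma cells had used, is given as a description, at a median of 5.83, 5.77 and 6.03% of UMIs in IGHM cells, 5.46, 3.85 and 6.24% in Y, and 2.69, 1.65 and 1.74% in X.

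Few named genes differed by over 3-fold between classes in each of the 3 libraries. Genes entered at a mean of at least 20 CPM over both classes and these libraries. A gene could thus enter through the class where it was high. Of 2894 genes with a mean of at least 20 CPM, 6 (0.207%) were higher in IGHM than in X cells, namely RGS7, EPHA3, MAGI1, ROBO2, IGF1R and KDM6B, and 2 (0.0691%) were lower, namely ARHGAP25 and PIK3R5. The guidance receptor ROBO2 stood at 39.8, 40.0 and 48.6 CPM in IGHM cells against 2.67, 3.38 and 9.41 CPM in X. In the right mScarlet bleb all IGHM values rest on 4 cells and all Y values on 5. The 40.0 CPM of ROBO2 there was 4 UMIs, and 2.67 and 3.38 CPM in X were 2 and 6 UMIs. RGS7 stood at 10.6, 320 and 25.5 CPM in IGHM cells, highest in those 4 cells. Of 2971 genes, 4 (0.135%) were higher in Y than in X, namely RGS16, BTLA, BLOC1S5 and MLLT3, and 0 (0.0%) were lower. The inhibitory receptor BTLA stood at 75.7, 101.1 and 59.9 CPM in Y against 17.4, 15.2 and 10.4 CPM in X. BLOC1S5, a subunit of a complex that builds lysosome-related organelles, stood at 919, 1213 and 1137 CPM against 151, 295 and 296 CPM. IGHM cells also stood above X for both, at 50.4, 79.9 and 87.9 CPM of BTLA and 1129, 879 and 909 CPM of BLOC1S5. Of 3136 genes, 4 (0.128%) were higher in IGHM than in Y, namely RGS7, ROBO2, CNTNAP2 and DLG2. CNTNAP2 stood at 26.5, 130 and 25.5 CPM in IGHM cells, highest in the 4 cells of the right mScarlet bleb. How far RNA of other retinal cells entered the class differences was not tested.

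**Figure D4:**
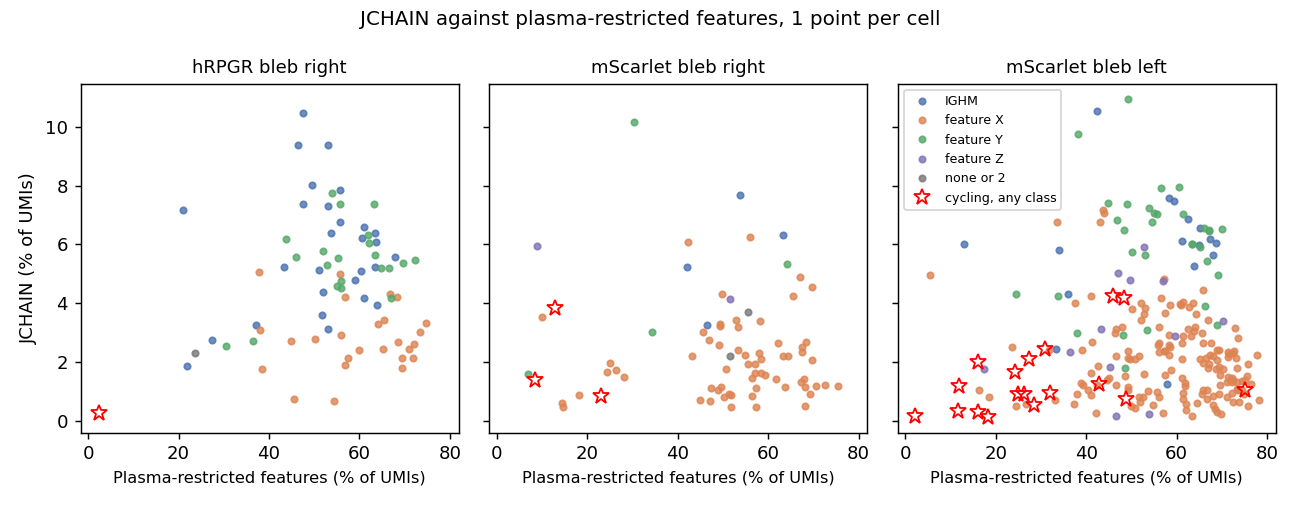
JCHAIN (percent of UMIs, vertical axis) against plasma-restricted features (percent of UMIs, horizontal axis) for each plasma cell of 3 libraries, colored by class, with cycling cells as stars. The medians of IGHM and Y cells lie above that of X cells for JCHAIN in each library, although single cells overlap, and most of the 22 cycling cells lie at low values on the horizontal axis, with a median of 24.6% against 57.0%.

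Some plasma cells carried cell cycle transcripts, mostly in the mScarlet blebs. At least 3 UMIs over 7 cell cycle genes were found in 1 of 77 cells of the right hRPGR bleb (1.30%, Wilson 95% interval 0.230 to 7.0), 3 of 78 of the right mScarlet bleb (3.85%, 1.32 to 10.7) and 18 of 235 of the left mScarlet bleb (7.66%, 4.90 to 11.8). Cells of a library are not replicates, so these intervals do not compare the blebs. The 22 cells had a lower share of plasma-restricted features than the rest (median 24.6% against 57.0%) and less JCHAIN (0.984% against 2.58%). Of them, 15 were in class X, 3 in Y, 2 in Z, 2 in none and 0 in IGHM. MKI67, a marker of proliferation, had a UMI in 1, 7 and 30 cells. Its UMIs lay in few cells, with 84 of 86 in 5 cells of the right mScarlet bleb and 186 of 302 in 5 cells of the left. The right hRPGR bleb had 3 MKI67 UMIs, all in its 1 cycling cell. That cell was in no class, with 2.36% of its UMIs from plasma-restricted features and 0.262% from JCHAIN.

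**Figure D5:**
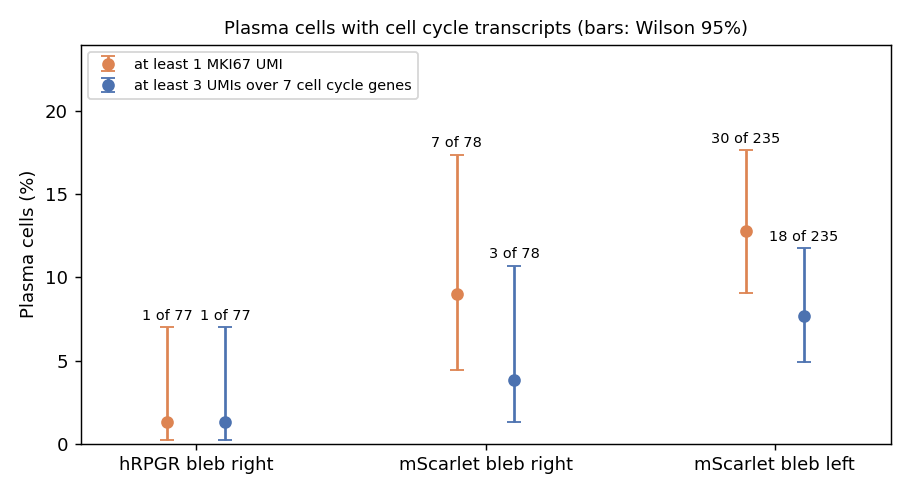
Share of plasma cells (percent, vertical axis) with at least 1 MKI67 UMI and with at least 3 UMIs over 7 cell cycle genes in 3 libraries, with Wilson 95% intervals and counts. The shares were 1.30, 8.97 and 12.8% for MKI67 and 1.30, 3.85 and 7.66% for the gene set, and the intervals cover counting error within a library and do not compare blebs.

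Cell cycle genes were also compared between vectors. UMIs were summed over the plasma cells of each bleb library and compared between the mScarlet and hRPGR blebs with edgeR, where the left hRPGR library held 2 cells and 30131 UMIs. Of 8013 features tested, 61 (0.761%) passed an adjusted p of 0.05 (edgeR, Benjamini-Hochberg), 49 higher in mScarlet (0.612%) and 12 lower (0.15%). With eye as a block, 17 passed. Of the 61, 25 had no symbol and 4 were immunoglobulin genes. In the cell cycle list, 4 of 11 tested genes rose (median log2 change 1.35, against 0.05 over all features), namely MKI67, RRM2, TOP2A and PCLAF. The count was 0 among 17 plasma identity, 22 translocation, 21 ER folding, 21 unfolded protein response, 16 N-glycosylation and 25 ER-to-Golgi genes tested by edgeR. At an unadjusted p of 0.05, 6 of the 120 genes of these lists passed, near the share over all features (443 of 8013), and DESeq2 called 0.

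MKI67 stood at 1.42 and 0 CPM in the right and left hRPGR blebs and at 40.3 and 44.4 CPM in the mScarlet blebs. In the left hRPGR library 1 UMI is worth 33.2 CPM, so a value of 0 there does not set that library apart, and the contrast rests on the right hRPGR bleb. The log2 change was 4.67 ± 0.66 (SE, adjusted p = 7.1e-10, edgeR), and the pooled ratio was 31.0 (counting interval 10.5 to 151). That interval treats UMIs as independent. The 3 UMIs of the right hRPGR bleb lay in 1 cell, and those of the mScarlet blebs mostly in few cells. With the block the adjusted p was 0.00267, and without the right hRPGR library it was 0.435. RRM2, a subunit of ribonucleotide reductase, stood at 4.26 and 0 CPM against 30.5 and 59.2 CPM (log2 change 3.26 ± 0.53, adjusted p = 2.3e-07, edgeR, but 0.207 with the block). TOP2A, a topoisomerase of dividing cells named after its values were seen, had no UMI in the hRPGR blebs and 18.8 and 13.0 CPM in the mScarlet blebs. Its level was at least 10.2-fold higher by a limit of 3 counts, which treats UMIs as independent.

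Of the other genes raised with the mScarlet vector at the lowest p, IGHV3-49 and PDE6H were high in the right mScarlet bleb alone. IGHV3-49, a heavy chain variable segment, stood at 754 CPM in the right mScarlet bleb and 0.294 CPM in the left. IGLV7-43, a lambda segment, had no UMI in the hRPGR blebs and 64.7 and 21.3 CPM in the mScarlet blebs. These values came from single cells, since all 1608 UMIs of IGHV3-49 in the right mScarlet bleb lay in 1 cell, and 136 of 138 and 145 of 145 UMIs of IGLV7-43 lay in 1 cell of each mScarlet bleb. The adjusted p of IGLV7-43 rose to 0.638 when the right hRPGR bleb was left out and to 0.140 when the left one was (edgeR). The cone gene PDE6H stood at 153 CPM in the right mScarlet bleb, where 322 of 326 UMIs lay in 2 cells, and 1.32 CPM in the left. Summed cone markers in plasma cells were 0.0278% of UMIs in the right mScarlet bleb, against 0.000280% in the left and 0.00194% in the right hRPGR bleb, and their part in the PDE6H result was not tested. Fold changes of IGHV3-49 and PDE6H turned negative without the right mScarlet library.

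Of genes lower in the mScarlet blebs, the transgene coRPGR had 155 and 33.2 CPM in the hRPGR blebs and none in the mScarlet blebs. By a limit of 3 counts, which treats UMIs as independent, it was at least 455.5-fold lower. CLDN3, a claudin, stood at 31.7 and 33.2 CPM against 7.51 and 11 CPM (log2 change -1.85 ± 0.40, adjusted p = 0.000699, edgeR, but 0.830 with the block, and a log2 change of -0.53 without the right hRPGR library). BTBD3 stood at 30.3 and 33.2 CPM against 15 and 11.6 CPM (log2 change -1.40, adjusted p = 0.0445, edgeR, and 1.00 with the block, and a log2 change of -0.13 without the right hRPGR library). In the left hRPGR library each of these values was 1 UMI. CCR10, named after its values were seen, stood at 83.8 and 0 CPM against 25.3 and 38.8 CPM (log2 change -1.32 ± 0.33, adjusted p = 0.013, edgeR, and 1.00 with the block). The left hRPGR library is too small to give a direction for it, and within class X it stood at 25.4, 24.3 and 20.0 CPM. Of 20 interferon genes tested, 1 passed, the interferon-induced GTPase GBP3, against 0.612% of all features that were higher. It stood at 36.0 and 0 CPM in the hRPGR blebs against 104 and 145 CPM (log2 change 1.76, adjusted p = 0.00458, edgeR, but 1.00 with the block and 0.239 to 1.00 with each library left out).

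Left and right eyes were compared in the 3 libraries with at least 10 plasma cells, which leaves the left eye with 1 library, the left mScarlet bleb, that is assumed to vary as the right ones do. In this comparison the eye cannot be told apart from the vector or from that single library. Of 9114 features, 128 (1.4%) passed an adjusted p of 0.05 (edgeR, Benjamini-Hochberg), 60 higher in the left library (0.658%) and 68 lower (0.746%), but DESeq2 called 20 and RLE scaling 48. The vector block could not be fitted here, and in 4 libraries with at least 2 cells it left 17. KLF2, a factor of lymphocyte quiescence, stood at 6.63 and 5.16 CPM in the right hRPGR and mScarlet blebs and 22.2 CPM in the left mScarlet bleb (log2 change 1.96, adjusted p = 0.000231, edgeR, and 0.0996 with the vector block in 4 libraries). FGL2 stood at 28.9 and 41.3 CPM against 70.5 CPM (log2 change 1.09, adjusted p = 0.0484, edgeR, and 1.00 with that block), TMTC1 at 2.37 and 0.938 CPM against 15.6 CPM and IGLV9-49 at 1.89 and 3.75 CPM against 66.2 CPM. Of the 68 lower features, the 5 symbols named by lowest p were the cone genes ARR3, PDE6H and OPN1LW, with log2 changes of -6.18, -5.69 and -4.37, and the segments IGHV3-49 and IGKV1D-42, with -9.94 and -2.97. ARR3 stood at 6.15 and 97.1 CPM on the right and 0.589 CPM on the left, and OPN1LW at 3.79, 45.5 and 1.03 CPM. In the right mScarlet bleb 2 cells held 201 of 207 UMIs of ARR3 and 96 of 97 of OPN1LW, and in the left one 2 cells held 439 of 450 UMIs of IGLV9-49. In the cell cycle list 4 of 17 genes passed, all higher in the left library, namely RRM2, MKI67, TYMS and PCLAF. RRM2 had an adjusted p of 9.1e-06 in edgeR, 0.131 with RLE scaling and 1.00 with the vector block in 4 libraries, and MKI67, at 40.3 CPM in the right and 44.4 CPM in the left mScarlet bleb, differed little between the eyes within that vector. Of 120 identity and secretory genes 0 passed in edgeR, 2 at an unadjusted p of 0.05, against 528 of all 9114 features, and 0 in DESeq2.

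Markers of other cell types took a small part of the UMIs of plasma cells. Rod markers took 0.150, 0.138 and 0.0912% of plasma cell UMIs, against 2.10 to 2.26% in other barcodes, and 3, 8 and 4 plasma cells held over 1%. Markers of Muller glia, the supporting cells of the retina, took 0.0620, 0.0345 and 0.0700%, against 0.408 to 0.471% in other barcodes, and 42, 25 and 150 plasma cells held at least 10 UMIs of them. Of these 6 markers, 5 were over 2-fold lower in plasma cells than in other barcodes on the named-gene scale and 1 was over 2-fold higher. Whether these UMIs came from glia or from the plasma cells was not tested. Myeloid markers took at most 0.00151%, and T and NK cell markers 0.00393, 0.00211 and 0.00458%. CD3D, a T cell receptor chain, had a UMI in 56 plasma cells, of which 3 also had CD3E. The transgenes were seen at low levels, with coRPGR at 155 CPM in plasma cells of the right hRPGR bleb against 3520 CPM in other barcodes and 3482 CPM in barcodes with 100 to 1000 UMIs, which stand for free RNA. Plasma cells thus held 0.0445 of the free level of coRPGR. The reporter mScarlet stood at 25.3 and 3.09 CPM in plasma cells of the right and left mScarlet blebs, against 206 and 155 CPM in other barcodes, and these levels were 0.445 and 0.0529 of the free level.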

How the data were processed

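Retina was lifted from biopsy punches of treated and untreated areas, dissociated with papain and loaded on the 10x 5′ kit. The authors aligned the reads with Cell Ranger (8.0.1 per the file headers) to Mmul_10 with added transgene sequences and deposited unfiltered UMI counts per barcode for 26533 features. Of these features 9288 had no symbol in the files or the supplied table. The authors' corrections for free RNA and doublets are not part of these counts.

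Barcodes with at least 1500 UMIs and 300 genes were kept (9564 to 15080 per library), with no mitochondrial filter, and the rule was applied as stated. Doublet scores came from Scrublet in scanpy 1.11.5. Groups followed the sample labels, and all replicates of NHP2 were areas of 1 animal. Shares were compared with exact two-sided permutation tests over libraries (scipy 1.17.1). Counts summed over plasma cells per library were compared with the quasi-likelihood test of edgeR 4.0.16 (R 4.3.3, TMM, filterByExpr, Benjamini-Hochberg over all features tested), with DESeq2 1.42.0 as an alternative, and the fits were tested on simulated data. The planned vector fit required 10 plasma cells per library, which only 1 hRPGR library had, so 2 were required instead, a choice made after the data were seen. Replicate number stands for the eye of the same animal, which pairs the samples by the labels. The left-minus-right differences of the 2 vectors had a Pearson correlation of -0.0299 over 8013 genes.

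Genes named were every detected plasma identity gene, the 5 highest of each other list and those at 0, immunoglobulin constant features with at least 1% of immunoglobulin UMIs, the 15 features with the largest ratio over other barcodes at 100 CPM or more in each library (those without a symbol counted only), and per test the 5 raised and 5 lowered genes of lowest p that moved alike in both eyes or vectors. Genes named outside this rule were chosen after their values were seen. The members and the gene lists were chosen with earlier results of these data known. Alternatives covered thresholds of the rule, depth, doublets, scaling, filters, the replicate block and each library left out.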

Additional observations from a re-analysis of the deposited data

Results flagged for a closer look

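In NHP2 the plasma cell share of the hRPGR bleb stood apart from the uninjected area on the right but not on the left. It was 0.600 percentage points higher on the right, with 77 plasma cells in the hRPGR bleb and 1 in the uninjected area. On the left it differed by -0.00504 percentage points, with 2 and 3 plasma cells, which gives no direction. This rests on 1 library per area and eye, and the difference between the eyes was not tested.

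Outside the plasma cell rule, 20 barcodes of the right hRPGR bleb had at least 50 UMIs of JCHAIN with fewer than 3 of MZB1, against 0 to 3 in the other libraries.

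Transgene transcripts were seen in areas labelled uninjected. huRPE65 stood at 353 CPM in the other barcodes of the left NHP1 library, and coRPGR at 139 CPM in those of the right uninjected NHP2 library.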

How the results depend on the processing

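The 3 comparisons of plasma cell shares kept their direction under other thresholds of JCHAIN and MZB1, depth, mitochondrial and doublet settings and the replicate block. None could pass 0.05, since the smallest p these designs allow is 0.133, 0.333 and 0.1 (exact two-sided permutation tests). Injected minus uninjected reached its smallest p of 0.133 with a higher MZB1 threshold and with a higher depth threshold. Both left out 1 plasma cell of the left uninjected area, with 1603 UMIs and 3 of MZB1. At the main JCHAIN threshold the overlap of the groups rested on that cell. With JCHAIN of at least 100 UMIs, which left it out too, p stayed 0.267 (exact two-sided permutation test). With each library left out, injected minus uninjected ranged from 0.464 to 1.15 percentage points, mScarlet minus hRPGR from 0.501 to 1.77, and left minus right from -0.456 to 0.577, which reversed without the left mScarlet bleb (-0.456) and without the right uninjected area (-0.00272). The cause was not tested.

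Counts of called features moved more. Between vectors, 61 became 17 in DESeq2, 119 without a low-count filter, 17 with the replicate block (eye as a term), 27 without features lacking a symbol, and 13 to 59 with each library left out, with 13 without the right and 15 without the left hRPGR library. Between eyes, 128 became 20 in DESeq2, 48 with RLE factors, 63 without features lacking a symbol, 24 with JCHAIN of at least 100 UMIs, 37 with at least 2 plasma cells per library, and 17 with the replicate block (vector as a term) on those libraries. In both comparisons, the setting without features lacking a symbol also left out immunoglobulin features, JCHAIN and MZB1. Leaving out only the latter gave 57 between vectors. The low-count filter, features without a symbol and the number of libraries change what is tested, and the cause of the other moves was not tested. Calls shifted from 49 higher and 12 lower to 15 higher and 2 lower with the block between vectors, and to 6 higher and 9 lower without the left hRPGR library. Between eyes they shifted from 60 higher and 68 lower to 35 higher and 13 lower with RLE factors, 21 higher and 3 lower with JCHAIN of at least 100 UMIs, 15 higher and 22 lower with at least 2 plasma cells per library, and 3 higher and 14 lower with the vector block on those libraries.

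Over 20 results for named genes and 195 alternatives, 129 kept the call, 63 kept the direction only and 3 reversed. Leaving out doublets removed no plasma cell, so that alternative could not change a gene result, and it is counted among those kept. With each library left out, the log2 change ranged from -4.66 to 12.9 for IGHV3-49 and from -2.88 to 10.6 for PDE6H, negative without the right mScarlet library, and from -1.60 to 9.60 for CCR10, positive without the right hRPGR library, where the fit compares against 2 cells and is no estimate. All 60 class shares stayed within the Wilson interval. Between eyes, the block and leaving out a library could not be fitted in 3 libraries, and a class call by the leading constant feature at 50 or 80% was not run, since of the heavy chain constant genes only IGHM and IGHE carried a symbol. The left hRPGR library, with 2 plasma cells, limits every comparison of vectors.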
